A study of Mus musculus with 7 samples.

Results

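The genes described here mark the cells of brain blood vessels: 22 genes of endothelial cells and 12 of mural cells, which are pericytes and vascular smooth muscle cells. They were chosen by symbol, with collagens left out, and all 34 symbols were found among the 48526 Ensembl genes of the deposited table. Brain RNA was measured in 7 libraries from mice of 24 months, 4 labelled on and 3 labelled off. Both groups carry the constructs V1S and SV2, with the fluorescent protein Venus named in the labels, in a study of α-synuclein oligomers detected by protein complementation. Mice of the on group have the label glucose and those of the off group the label Dox, so doxycycline and the state of the constructs cannot be told apart. The promoter that drives the constructs, the brain region, and whether each library is a separate animal are not stated in the labels. P-values therefore measure only the spread between these samples. Expression is given as rlog, a regularized logarithm with base 2, and library depth is unknown.

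Endothelial cells line the vessel, and in the brain they are sealed by tight junctions and carry transporters that set which molecules pass, which together form the blood-brain barrier. Vascular endothelial growth factor and angiopoietins act on endothelial receptors, while endothelial PDGF-B recruits pericytes through the receptor encoded by Pdgfrb. Pericytes sit on capillaries, and smooth muscle cells ring the arteries and set their diameter. These cells are a small part of brain tissue, so in bulk RNA fewer cells of a type and less RNA per cell cannot be told apart.

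Many endothelial promoters are known to hold sites for ETS transcription factors such as ERG and FLI1, so such a motif was searched. Promoters are shown for 4 genes as examples. Each was lowest among the on libraries in on replicate 1, as were 30 of the 34 genes. A link of the motif to the values of that library was not tested. RefSeq promoters on GRCm38.p6 were found for 26 of the 34 genes, 17 endothelial and 9 mural. The motif AGGAAG was searched on either strand from 250 bases before to 50 bases after the start. It was present in at least 1 promoter of 11 of the 26 genes, 11 of the 17 endothelial and 0 of the 9 mural genes. Such a promoter was found for 38.4% of all 27025 genes, and of their 32851 promoters 35.4% held the motif. Abcg2, Egfl7, Ly6c1 and Ocln have more than 1 promoter in the table. The promoter of Abcb1a, 1 of the 11, lies at chr5:8566841-8567140, well before the annotated gene start at 8660077. In the shorter window from 100 bases before to 50 after, 7 endothelial genes had it, against 23.6% of all genes and 21.0% of all promoters. The 150 bases before the start are printed 5′ to 3′ for 3 endothelial genes with the motif and for the pericyte gene Rgs5, which lacks it, with each copy on either strand in capitals. Those of Flt1 lie at chr5:147726012-147726161 on the minus strand, those of Eng at chr2:32646445-32646594, those of Emcn at chr3:137340928-137341077 and those of Rgs5 at chr1:169655351-169655500, the latter 3 on the plus strand.
Flt1: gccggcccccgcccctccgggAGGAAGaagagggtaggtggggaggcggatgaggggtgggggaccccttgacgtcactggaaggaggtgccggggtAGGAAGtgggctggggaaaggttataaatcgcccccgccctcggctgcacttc
Eng: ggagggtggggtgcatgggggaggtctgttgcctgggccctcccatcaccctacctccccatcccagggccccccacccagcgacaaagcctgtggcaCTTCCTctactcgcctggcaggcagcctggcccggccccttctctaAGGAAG
Emcn: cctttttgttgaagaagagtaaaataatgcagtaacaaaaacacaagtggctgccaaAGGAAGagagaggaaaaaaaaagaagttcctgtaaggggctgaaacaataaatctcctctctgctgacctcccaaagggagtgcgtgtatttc
Rgs5: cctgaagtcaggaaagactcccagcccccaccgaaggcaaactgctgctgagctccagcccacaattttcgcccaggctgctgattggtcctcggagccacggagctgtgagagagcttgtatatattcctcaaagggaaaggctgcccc
Flt1 and Eng each have 2 copies in these bases and Emcn has 1. The other motifs searched on both strands were found in fewer of the 26 genes: a SOX site (ACAATG) in 3, a GATA site (AGATAA) in 3 and a TATA box (TATAAA) in 5, against 14.3%, 12.7% and 15.7% of all genes and 12.6%, 11.2% and 13.6% of all promoters. The CArG box, known from smooth muscle genes, was in 0 of the 26, against 1.81% of all genes and 1.63% of all promoters. A match describes letters only. No motif's letters hold another's.

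All 34 genes had a mean value of 3 or more over the 7 libraries, the minimum for testing, which 17896 genes reached. Per transcript length (rlog value minus log2 of the longest transcript in kilobases), the highest level was that of Vtn, the pericyte gene for vitronectin, at 10.25 ± 0.09 (SD, n = 7). It was followed by Ly6c1 at 9.91 ± 0.15, Itm2a at 9.89 ± 0.08 and Rgs5 at 9.83 ± 0.18, neighbours that lie within their spread of each other. Tjp1 at 9.41 ± 0.10, the thyroid hormone transporter Slco1c1 at 9.34 ± 0.11 and the main barrier claudin Cldn5 at 9.07 ± 0.14 came next among those named here. The lowest levels per length were those of the contractile and filament genes Myh11 at 5.05, Des at 4.00 and Cnn1 at 2.44 ± 0.04. Endothelial, pericyte and smooth muscle markers were thus all measured, with smooth muscle genes between 2.44 and 6.75. Tjp1 is also made by cells outside vessels, so its level is not that of endothelium alone.

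**Figure D1:**
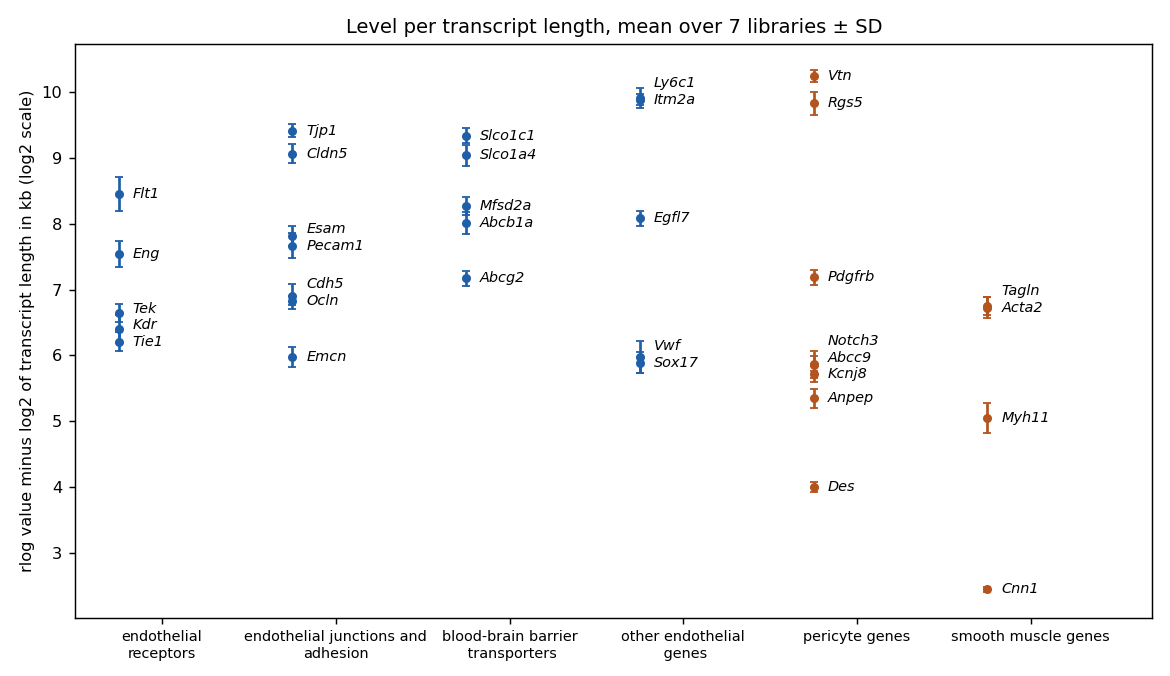
Level of each of the 34 genes per transcript length (rlog value minus log2 of the length in kilobases), by role, with points at the mean over the 7 libraries and bars of 1 SD. Vtn is highest at 10.25 and Cnn1 lowest at 2.44.

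The 34 genes shared a pattern across the 7 libraries that followed the groups only in part. The mean deviation from each gene's own mean was 0.098, 0.13 and 0.093 in on replicates 2, 3 and 4, but -0.16 in on replicate 1. In off replicates 1, 2 and 3 it was -0.020, -0.17 and 0.022. On replicate 1 and off replicate 2 were thus the low libraries, and they belong to different groups. The endothelial genes alone gave -0.18, 0.11, 0.13 and 0.090 in on, and 3.3e-05, -0.17 and 0.022 in off. Mural genes gave -0.13, 0.075, 0.15 and 0.099 in on, and -0.056, -0.16 and 0.022 in off. Both cell classes had the same 2 low libraries.

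Gene by gene, the lowest of the 7 libraries was on replicate 1 for 18 genes and off replicate 2 for 14, which makes 32 of 34. Among all tested genes that share was 27.4%. The exceptions were Cnn1, lowest in off replicate 1, and Ocln, lowest in off replicate 3. On replicate 1 was below each other on library in 30 of the 34 genes, against 31.5% of all tested genes, the exceptions being Mfsd2a, Pdgfrb, Anpep and Cnn1. Off replicate 2 was below both other off libraries in 29 of the 34, against 32.1% of all tested genes. The highest library was on replicate 2, 3 or 4 in 27 genes. These libraries were singled out after their values were seen, so the counts describe them and carry no test.

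**Figure D2:**
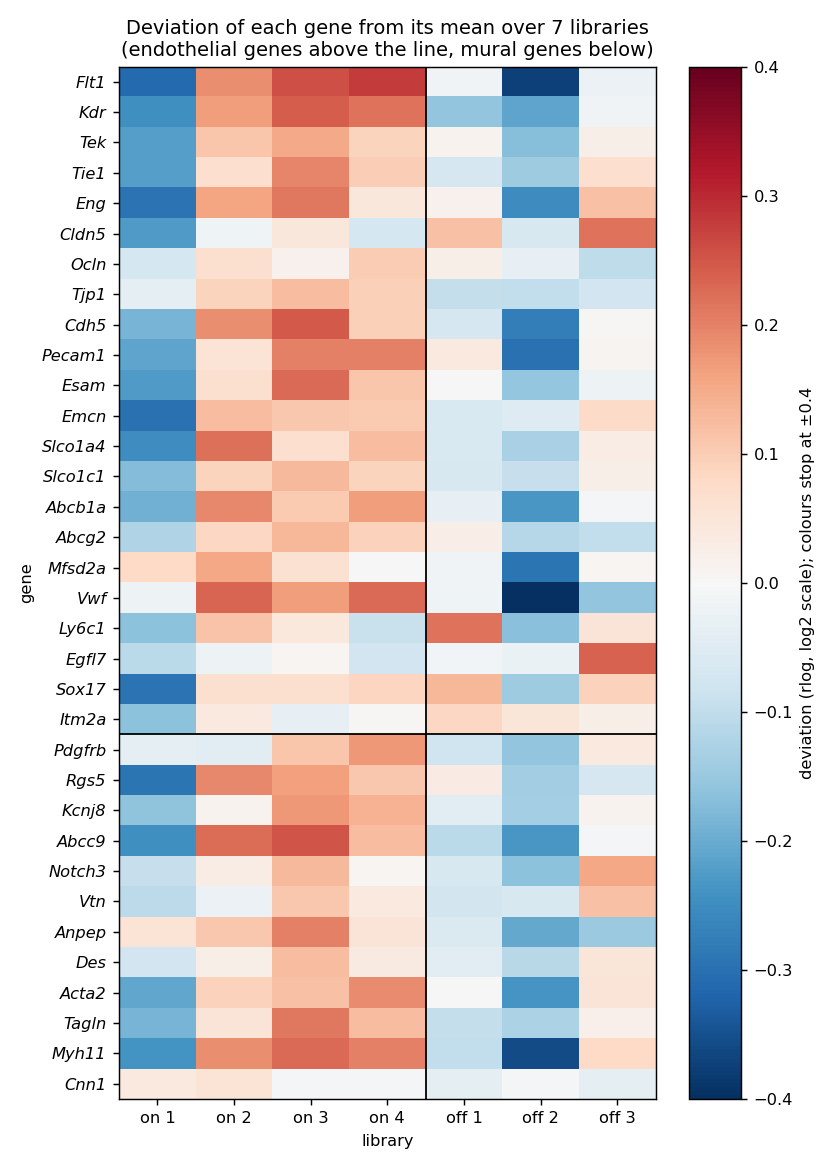
Deviation of each of the 34 genes from its own mean (rlog, log2 scale; red above, blue below) in each library, in order of role. On replicate 1 and off replicate 2 are low across most endothelial and mural genes, and on replicates 2 to 4 are mostly high.

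On replicate 1 also stood apart from the on group over all genes. Its score on the leading principal component (47.7% of the variance) was -4.10, within the off range of -8.64 to -3.56, while on replicates 2 to 4 scored 7.19 to 9.15. The rank correlation of deviation with transcript length, taken across genes, which are not independent replicates, was -0.059 there, at least 0.274 in each further on library and at most -0.233 in each off library. Correcting every library for its own dependence on GC content and transcript length left the vascular pattern nearly as it was: the mean deviation of the 34 genes was then -0.16, 0.098, 0.13 and 0.091 in on, and -0.015, -0.16 and 0.021 in off. Of the 34 genes, 22 had a longest transcript above the tested median of 3158 bases.

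Between on and off, limma called 2 of the 34 genes at an adjusted p under 0.05 (Benjamini-Hochberg over all tested genes), Vwf and Anpep, both higher in on. Among all tested genes 2.6% were called, 0.816% higher and 1.79% lower in on. The differences, on minus off, ran from -0.16 for Cldn5 to 0.35 for Vwf with a median of 0.098, against 0.0029 over all tested genes. They were positive in 29 of 34 genes, against 51.5% of all tested genes, in 17 of 22 endothelial and all 12 mural genes. At an unadjusted p under 0.05 there were 7 genes, Kdr, Cldn5, Tjp1, Cdh5, Mfsd2a, Vwf and Anpep, against a background of 20.7%. The groups did not overlap in 3 of the 34 genes, against 15.2% of all tested genes. On libraries lay wholly above off libraries in all 3, Tjp1, Anpep and Cnn1, where the background was 7.13%, and wholly below in 0, where it was 8.09%.

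The number of calls moved with which library was left out. Without on replicate 1, limma called 16 of the 34 genes, all higher in on, where 8.28% of all tested genes were called higher and 8.02% lower. The 16 were 11 endothelial genes (Flt1, Kdr, Tjp1, Cdh5, Pecam1, Esam, Slco1a4, Slco1c1, Abcb1a, Abcg2 and Vwf) and 5 mural genes (Rgs5, Abcc9, Anpep, Tagln and Myh11). On replicate 1 was the lowest on library in 30 of the 34 genes, so leaving it out raises their on mean. Calls made without it, here and below, describe the weight of that library and are no separate evidence of a difference. Leaving out off replicate 2 gave 0 calls by limma (5 at an unadjusted p under 0.05), where 0.24% of all tested genes were called. The count was also 0 without on replicate 2, 3 or 4 or off replicate 3, and 1, Vwf, without off replicate 1. Of all 17896 tested genes, the fits without on replicates 2, 3 and 4 called 175, 57 and 85. Those without off replicates 3 and 1 called 74 and 311. The median difference was 0.17 without on replicate 1 and 0.055 with off replicate 2 left out. With values corrected for GC content and length the median was 0.094 and 29 differences were positive (Ly6c1 in place of Emcn), but limma called 0 of the 34 (4 at an unadjusted p under 0.05), where 0.469% of all tested genes were.

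**Figure D3:**
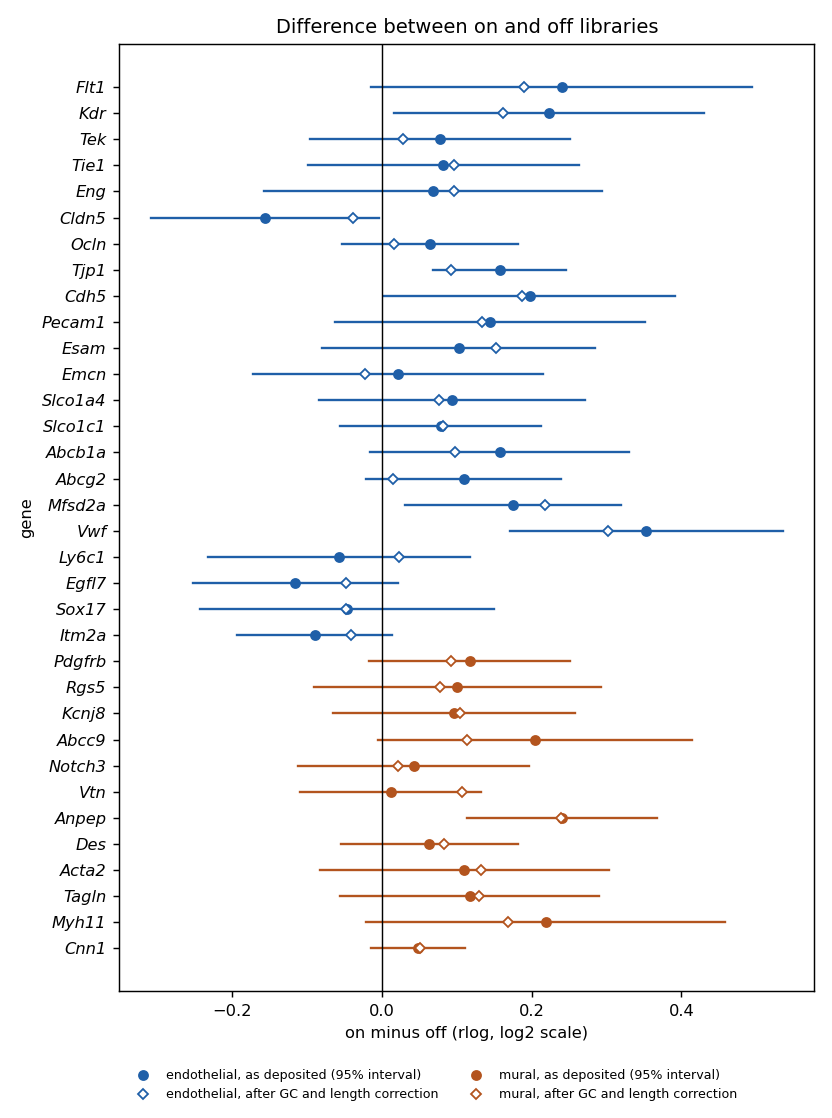
Difference on minus off (log2 scale) of each of the 34 genes with its 95% interval (filled circles and lines), and the same difference with values corrected for GC content and length (open diamonds). Vwf (0.35) and Anpep (0.24) are past the adjusted threshold, and most intervals include 0.

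Endothelial receptors had positive differences in 5 of 5 genes with a median of 0.082, and 0 were called by limma (1 at an unadjusted p under 0.05, Kdr). Flt1, which encodes the decoy VEGF receptor 1, read 10.93, 11.43, 11.50 and 11.52 in on replicates 1 to 4 and 11.23, 10.87 and 11.22 in off replicates 1 to 3. The span from its lowest to its highest library was 1.57-fold, and on replicate 1 lay among the off values. Its difference was 0.24 ± 0.12 (SE, 95% interval -0.015 to 0.49, adjusted p = 0.268), from 11.10 ± 0.20 (SD, n = 3) to 11.34 ± 0.28 (SD, n = 4). Kdr, the main signalling receptor of VEGF, read 8.72, 9.14, 9.21 and 9.19 in on and 8.81, 8.76 and 8.95 in off. Here on replicate 1 was the lowest of all 7 and the other 3 on libraries were above each off library. The difference of Kdr was 0.22 ± 0.10 (SE, adjusted p = 0.21). Without on replicate 1 both receptors passed, Flt1 at 0.38 and Kdr at 0.34 (adjusted p = 0.00233 and 0.00115). Over all 19 alternatives the adjusted p ran from 0.00233 to 0.741 for Flt1 and from 0.00115 to 0.622 for Kdr.

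Tek, which encodes the angiopoietin receptor Tie2, read 8.64, 8.97, 9.01 and 8.95 in on and 8.87, 8.69 and 8.89 in off. The on replicates 2 to 4 were again above the off values and on replicate 1 below them. Its difference was 0.078 ± 0.081 (SE, adjusted p = 0.627). Tie1, the orphan partner of Tek, differed by 0.082 ± 0.085 (SE, adjusted p = 0.622), and Eng, a TGF-β coreceptor, by 0.068 ± 0.11 (SE, adjusted p = 0.76). The interval of Eng, -0.16 to 0.29, leaves room for either direction, and its sign turned to -0.038 without off replicate 2. Eng shares 61 bases with Fpgs on the opposite strand, and it is not stated whether the counting used strand.

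Junction genes include both signs of difference, none past the limma threshold. Cldn5, at chr16:18776847-18778262, read 9.34, 9.55, 9.61 and 9.50 in on and 9.69, 9.50 and 9.79 in off. It was chosen for full values after they were seen, as the gene with the most negative difference, -0.16 ± 0.071 (SE, 95% interval -0.31 to -0.0046, adjusted p = 0.227). The groups overlapped through off replicate 2. Corrected for GC content and length it was -0.039 ± 0.081 (SE, adjusted p = 0.848), and over all 19 alternatives it ran from -0.23 to 0.033. Tjp1, which encodes the scaffold ZO-1 that ties claudins to actin, lies at chr7:65296165-65527781 on the minus strand. It read 12.20, 12.32, 12.35 and 12.33 in on and 12.14, 12.13 and 12.16 in off, with no overlap. Its difference of 0.16 ± 0.041 (SE) missed the threshold in limma (adjusted p = 0.0587) and was 0.093 ± 0.032 (SE, adjusted p = 0.177) after the correction. Its adjusted p ran from 0.00227 to 0.489 over the alternatives.

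Emcn, the sialomucin of capillary and venous endothelium, read 7.50, 7.92, 7.91 and 7.90 in on and 7.74, 7.75 and 7.88 in off. The gap between on replicate 1 and the other on libraries spans the whole off group. The difference was 0.021 ± 0.090 (SE, 95% interval -0.17 to 0.21, adjusted p = 0.922). The endothelial cadherin Cdh5 differed by 0.20 ± 0.091 (SE, adjusted p = 0.234), the adhesion molecules Pecam1 and Esam by 0.14 ± 0.10 and 0.10 ± 0.085 (SE, adjusted p = 0.426 and 0.527), and the tight junction gene Ocln by 0.064 ± 0.055 (SE, adjusted p = 0.54). Over the 7 junction genes the median was 0.10, with 6 positive and 0 called by limma. Of the 7, 3 were at an unadjusted p under 0.05, against 20.7% of all tested genes.

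Barrier transporters had positive differences in 5 of 5 with a median of 0.11, and 0 were called by limma (1 at an unadjusted p under 0.05, Mfsd2a). Slco1c1 read 10.83, 11.09, 11.14 and 11.09 in on and 10.94, 10.91 and 11.03 in off, so on replicate 1 was the lowest and the other on libraries were the 3 highest. Its difference was 0.079 ± 0.063 (SE, adjusted p = 0.509). Mfsd2a, which carries lysophosphatidylcholine with docosahexaenoic acid and restrains transcytosis, broke with that pattern. It read 9.46, 9.53, 9.44 and 9.38 in on and 9.36, 9.08 and 9.38 in off, and only off replicate 2 was low. Its difference of 0.17 ± 0.067 (SE, adjusted p = 0.166) was 0.078 without off replicate 2 and 0.22 ± 0.068 (SE, adjusted p = 0.153) after the correction. The organic anion carrier Slco1a4 differed by 0.094 ± 0.083 (SE, adjusted p = 0.556). For the efflux pumps Abcb1a and Abcg2 the differences were 0.16 ± 0.081 and 0.11 ± 0.061 (SE, adjusted p = 0.287 and 0.331). Abcb1a has a close copy, Abcb1b, so its value is uncertain.

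Vwf, which encodes the von Willebrand factor of endothelial storage granules, lies at chr6:125546774-125686679 on the plus strand. It read 9.10, 9.35, 9.28 and 9.34 in on and 9.10, 8.69 and 8.96 in off. On replicate 1 lay just below off replicate 1, and the other on libraries were above the off group. Vwf rose from 8.91 ± 0.21 (SD, n = 3) in off to 9.27 ± 0.12 (SD, n = 4) in on, a difference of 0.35 ± 0.085 (SE, 95% interval 0.17 to 0.54, adjusted p = 0.0454). Without off replicate 2 it was 0.24 (adjusted p = 0.216) and after the correction 0.30 ± 0.088 (SE, adjusted p = 0.138). It passed in 2 of the 7 fits without 1 library, those without on replicate 1 or off replicate 1, and the adjusted p ran from 0.00237 to 0.426 over all 19 alternatives. Relative to the other endothelial genes of the same library, a description added after seeing the data, Vwf lay between 0.044 and 0.17 in on and between -0.27 and -0.019 in off.

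The 4 endothelial genes grouped with Vwf outside the receptor, junction and transporter roles, Ly6c1, Sox17, Egfl7 and Itm2a, had negative differences, and limma called 0 of the 4 (0 at an unadjusted p under 0.05). Ly6c1, a surface antigen of brain endothelium, read 9.50, 9.78, 9.71 and 9.58 in on and 9.88, 9.50 and 9.72 in off, with wide overlap. Its difference was -0.058 ± 0.082 (SE, adjusted p = 0.731) and 0.023 after the correction, and its near copy Ly6c2 makes the value uncertain. Sox17, a transcription factor of arterial endothelium, read 7.29, 7.65, 7.65 and 7.67 in on and 7.72, 7.44 and 7.68 in off. On replicate 1 was the lowest and off replicate 2 the next, and the remaining 5 libraries lay together. Its difference was -0.047 ± 0.091 (SE, adjusted p = 0.812). The secreted factor Egfl7, whose gene hosts a microRNA, differed by -0.12 ± 0.064 (SE, adjusted p = 0.324) and the membrane protein gene Itm2a by -0.090 ± 0.048 (SE, adjusted p = 0.31). Of the 5 genes with negative differences, Cldn5, Ly6c1, Egfl7 and Itm2a have transcripts of 844 to 1865 bases, and that of Sox17 is 3242 bases long. Esam, Tagln and Vtn, at 1865, 1595 and 1744 bases, had positive differences of 0.10, 0.12 and 0.012. After the correction Cldn5, Egfl7, Itm2a and Sox17 stayed negative, at -0.039, -0.048, -0.041 and -0.048.

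**Figure D4:**
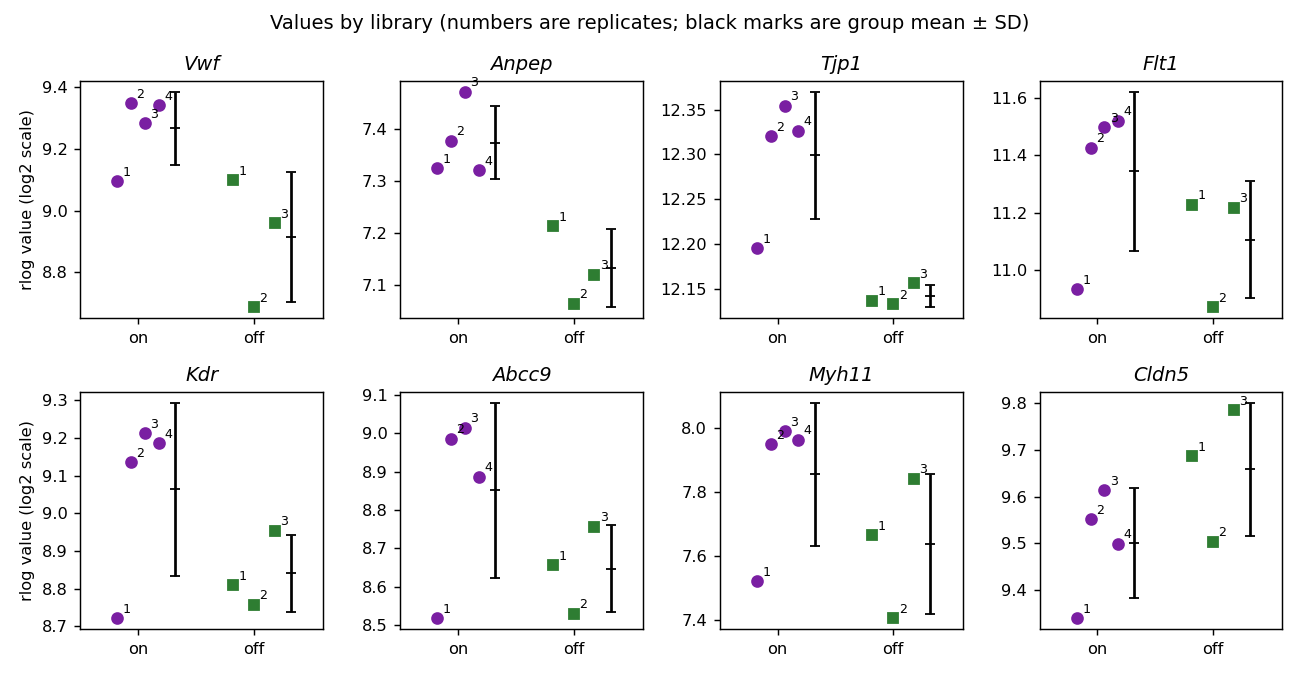
Values of 8 genes (rlog, log2 scale) in each on library (circles) and off library (squares), numbered by replicate, with group means and bars of 1 SD in black. On replicate 1 is low in its group except in Anpep, and off replicate 2 is the lowest off library in each panel, by a small margin in Tjp1 (12.13 against 12.14).

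Pericyte genes had positive differences in 8 of 8 genes with a median of 0.098, and 1, Anpep, was called. Anpep, which encodes aminopeptidase N (CD13) on brain pericytes, lies at chr7:79821803-79861059 on the minus strand. It read 7.32, 7.38, 7.47 and 7.32 in on and 7.21, 7.06 and 7.12 in off, with no overlap and with on replicate 1 among the other on libraries. Anpep rose from 7.13 ± 0.07 (SD, n = 3) to 7.37 ± 0.07 (SD, n = 4), by 0.24 ± 0.059 (SE, 95% interval 0.11 to 0.37, adjusted p = 0.0484). The difference was 0.24 ± 0.058 (SE) after the correction too, where it missed the threshold (adjusted p = 0.0897). It passed in 1 of the 7 fits without 1 library, that without on replicate 1, and the adjusted p ran from 0.0104 to 0.333 over the 19 alternatives. Relative to the other mural genes of the same library, on ran from -0.052 to 0.20 and off from -0.19 to -0.0013, so the groups then overlapped.

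Abcc9 and Kcnj8 encode the subunits of the ATP-sensitive potassium channel of pericytes. Abcc9 read 8.52, 8.99, 9.01 and 8.89 in on and 8.66, 8.53 and 8.76 in off, the same shape as Kdr. The difference was 0.20 ± 0.10 (SE, adjusted p = 0.252) for Abcc9 and 0.096 ± 0.075 (SE, adjusted p = 0.502) for Kcnj8. Rgs5, a regulator of G protein signalling, read 11.58, 12.06, 12.03 and 11.98 in on and 11.90, 11.73 and 11.80 in off; it was chosen for full values after they were seen. Its difference was 0.10 ± 0.090 (SE, adjusted p = 0.56) and 0.21 (adjusted p = 0.00492) without on replicate 1. Over the 19 alternatives its adjusted p ran from 0.00492 to 0.844.

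Vtn read 10.95, 11.03, 11.16 and 11.09 in on and 10.98, 10.99 and 11.17 in off, so the most abundant gene per length overlapped fully. Its difference was 0.012 ± 0.057 (SE, 95% interval -0.11 to 0.13, adjusted p = 0.932). Pdgfrb, the PDGF receptor of pericytes, differed by 0.12 ± 0.063 (SE, adjusted p = 0.306), the Notch receptor Notch3 by 0.042 ± 0.072 (SE, adjusted p = 0.783) and the intermediate filament gene Des by 0.063 ± 0.055 (SE, adjusted p = 0.548). Notch3 lies opposite Gm17276 over 21024 bases, so its value is uncertain without the strand setting. Its sign turned to -0.027 without off replicate 2.

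Smooth muscle genes were positive in 4 of 4 with a median of 0.11, and 0 were called by limma (0 at an unadjusted p under 0.05). Myh11, the smooth muscle myosin heavy chain, read 7.52, 7.95, 7.99 and 7.96 in on and 7.66, 7.40 and 7.84 in off. On replicate 1 and off replicate 2 were the 2 lowest. Its difference was 0.22 ± 0.11 (SE, 95% interval -0.021 to 0.46, adjusted p = 0.285). Tagln, the actin-binding transgelin, read 7.24, 7.48, 7.64 and 7.55 in on and 7.33, 7.30 and 7.44 in off, and differed by 0.12 ± 0.081 (SE, adjusted p = 0.438). Without on replicate 1 both passed, at 0.33 (adjusted p = 0.0127) for Myh11 and 0.20 (adjusted p = 0.0399) for Tagln; over the alternatives the adjusted p ran up to 0.71 and 0.749. Tagln shares 108 bases with the more abundant Pcsk7 on the opposite strand. Acta2, the smooth muscle actin, differed by 0.11 ± 0.090 (SE, adjusted p = 0.522), and reads shared with other actin genes make it uncertain. Cnn1, calponin, was near the limit of testing at 3.74, 3.75, 3.69 and 3.69 in on and 3.66, 3.69 and 3.66 in off. Its groups did not overlap, but rlog shrinks low genes and its difference was only 0.048 ± 0.029 (SE, adjusted p = 0.377).

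The genes that signal to these cells, or share their identity, were described with 8 lists of 162 genes, 159 of them tested. Sele and Selp, adhesion molecules of inflamed endothelium, and Myocd, a coactivator of smooth muscle genes, were too low to test, at means of 1.35, 0.66 and 2.41. Of the 159, 4 were called higher in on (Car4, Insr, Cgnl1 and Fn1) and 1 lower (Vegfb), against 0.816% and 1.79% of all tested genes. VEGF and angiopoietin genes were positive in 8 of 14 with a median of 0.034. The VEGF receptor 1 ligand Vegfb fell from 10.83 ± 0.02 (SD, n = 3) to 10.62 ± 0.04 (SD, n = 4), by 0.20 ± 0.039 (SE, adjusted p = 0.0182), but the corrected difference was -0.025 ± 0.033 (SE, adjusted p = 0.759). Across the 19 alternatives the adjusted p of Vegfb ran from 0.00126 to 0.886. Signalling genes of the PDGF, TGF-β and Notch pathways were positive in 9 of 22 with a median of -0.032 and 0 called by limma (1 at an unadjusted p under 0.05), the smallest p being that of the Notch target Hes1 (-0.13, adjusted p = 0.191). Wnt genes of the barrier were positive in 11 of 20 with a median of 0.0016 and 0 called. Of the 20, 5 were at an unadjusted p under 0.05, against 20.7% of all tested genes. The smallest p was that of the transcription factor Lef1 (0.22 ± 0.063, SE, adjusted p = 0.0717).

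Other barrier transporters were positive in 13 of 19 with a median of 0.037. Car4, a carbonic anhydrase of the capillary surface, had the largest difference in these lists, 0.57 ± 0.067 (SE, adjusted p = 0.00105), from 10.36 ± 0.02 (SD, n = 3) to 10.93 ± 0.16 (SD, n = 4). It was known beforehand to differ in these data. After the correction it was 0.66 ± 0.083 (SE, adjusted p = 0.00629), and it passed with each single library left out. It passed in 18 of 19 alternatives, with an adjusted p from 9.7e-07 to 0.119, and missed the threshold with no filter on low values. The insulin receptor gene Insr rose by 0.15 ± 0.038 (SE, adjusted p = 0.0497), with 0.057 (adjusted p = 0.332) after the correction. Its adjusted p ran from 0.00718 to 0.692 over the alternatives.

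Other endothelial identity genes were positive in 27 of 30 with a median of 0.091, close to that of the 22 endothelial genes, 0.088. The junction gene Cgnl1 rose by 0.21 ± 0.047 (SE, adjusted p = 0.0359), a call that the correction ended (0.17, adjusted p = 0.0776, range 0.00162 to 0.312 over the alternatives). Without on replicate 1, 12 of the 30 were called higher, against 8.28% of all tested genes. Laminins and nidogens of the basement membrane, listed with Hspg2, Agrn, Sparc and the fibronectin Fn1, were positive in 10 of 12 with a median of 0.098. The negative genes were Agrn (-0.012) and Sparc (-0.10). Fn1 rose by 0.29 ± 0.059 (SE, adjusted p = 0.025), which the correction ended too (0.24, adjusted p = 0.0698, range 0.000466 to 0.217). Arterial, venous and inflamed endothelium was positive in 9 of 16 tested genes with a median of 0.011 and 0 called (1 at an unadjusted p under 0.05), and its smallest p was that of the arterial gene Sema3g (0.16, adjusted p = 0.221). Other mural genes were positive in 18 of 26 with a median of 0.052 and 0 called. Of the 26, 3 were at an unadjusted p under 0.05, against 20.7% of all tested genes, with the smallest p for the integrin gene Itga8 (0.15, adjusted p = 0.192).

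Cell types that lie beside vessels, or that dissection could add, were followed by their own markers. Perivascular macrophage genes deviated by -0.0033, -0.0036, 0.095 and 0.020 in on and 0.0053, -0.094 and -0.020 in off, and with a median difference of 0.053 and 7 of 8 positive, 0 were called by limma (2 at an unadjusted p under 0.05). Their summed level was 9.96 to 10.09 in on and 9.86 to 9.93 in off, with the smallest p for Cd163 (0.18, adjusted p = 0.117). Fibroblast genes deviated by 0.017 in on replicate 1 and -0.062 in off replicate 2, and 1 of 9, Igfbp2, was called, lower in on (-0.21 ± 0.053, SE, adjusted p = 0.0493, range 0.00292 to 0.687). The list as a whole had positive differences in 7 of 9 genes with a median of 0.077. Of the 9, 5 were at an unadjusted p under 0.05, against 20.7% of all tested genes. Their summed level was 13.22 to 13.30 in on and 13.25 to 13.30 in off. Red cell genes, signs of blood left in the tissue, deviated by -0.18, 0.19, 0.018 and -0.16 in on and 0.17, 0.080 and -0.13 in off. Of the 6 tested, 0 were called by limma (0 at an unadjusted p under 0.05), and the summed level was 7.76 to 8.38 in on and 7.89 to 8.39 in off. The red cell genes were low in on replicate 1 but not in off replicate 2.

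**Figure D5:**
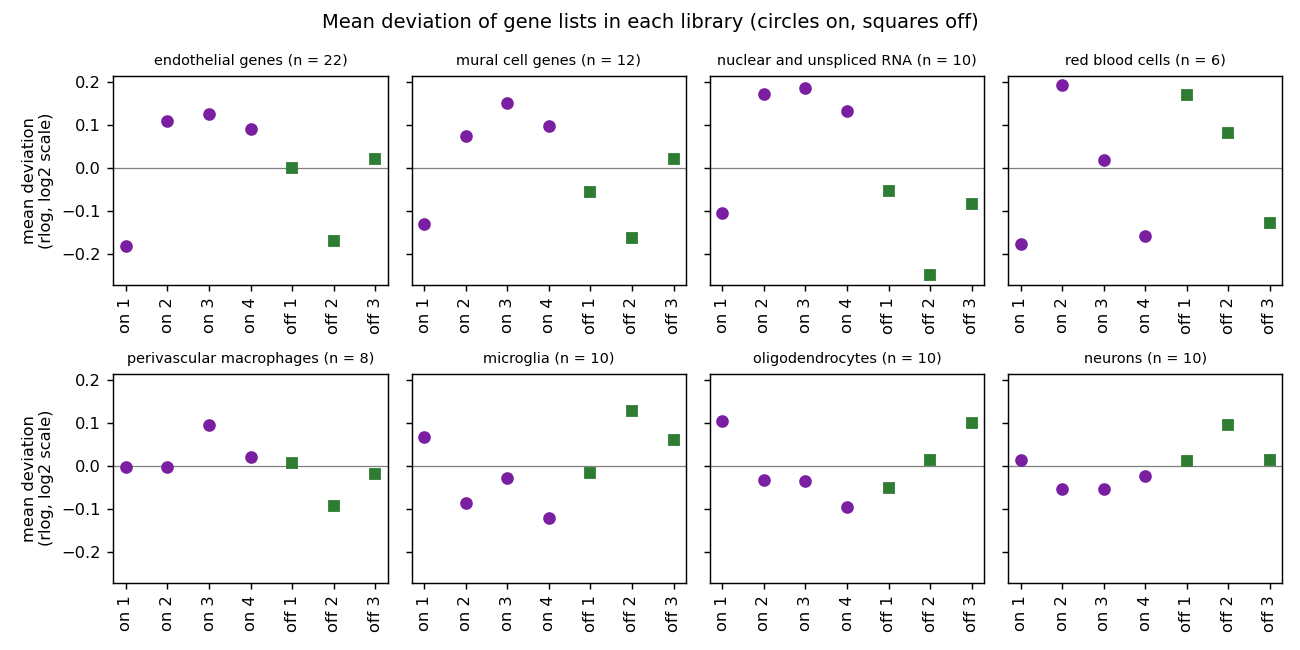
Mean deviation (log2 scale) in each library of the endothelial genes, the mural cell genes and 6 of the other lists, with circles for on and squares for off. Endothelial and mural genes are low in on replicate 1 and off replicate 2. The panel titled nuclear and unspliced RNA, a list of 10 long noncoding RNAs, is at -0.10 and -0.25 there.

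Of the lists of other brain cells, microglial genes had negative differences in 9 of 10 genes with a median of -0.097 and neuronal genes in 8 of 10 with a median of -0.068. Each list had 4 at an unadjusted p under 0.05, where 20.7% of all tested genes were. The microglial and neuronal medians are opposite in sign to the 0.098 of the vascular genes. After the correction for GC content and length they were -0.076 and -0.043, and that of the vascular genes was 0.094. Oligodendrocyte genes were negative in 7 of 10 (median -0.051), astrocyte genes in 6 of 10 (median -0.014) and choroid plexus genes in 4 of 9 (median 0.018). Genes of all 5 lists lay, on average, above their means in on replicate 1: astrocyte genes deviated by 0.068, microglial genes by 0.067, oligodendrocyte genes by 0.10, neuronal genes by 0.013 and choroid plexus genes by 0.11. In off replicate 2 the same lists gave 0.0092, 0.13, 0.012, 0.096 and -0.046. Of these lists limma called only Slc32a1, the vesicular GABA transporter, lower in on (-0.23 ± 0.048, SE, adjusted p = 0.0282, range 0.00108 to 0.401). The smallest p of the others were those of Sox9 in astrocytes (-0.16, adjusted p = 0.089), Trem2 in microglia (-0.23, adjusted p = 0.0914), Cldn11 in oligodendrocytes (-0.11, adjusted p = 0.261), Kcne2 in choroid plexus (0.067, adjusted p = 0.569) and Slc4a1 in red cells (0.068, adjusted p = 0.29). A list titled nuclear and unspliced RNA, made of 10 long noncoding RNAs such as Malat1 and Meg3, was also followed. It deviated by -0.10, 0.17, 0.19 and 0.13 in on and -0.054, -0.25 and -0.084 in off. Neither unspliced reads nor RNA quality was measured. The 10 genes of this list were all positive with a median of 0.20. Snhg14 (0.29 ± 0.049, SE, adjusted p = 0.0115) and Malat1 (0.61 ± 0.11, SE, adjusted p = 0.0159) were called, where 0.816% of all tested genes were called higher. Once corrected, 7 of the 10 were positive with a median of 0.11. Over the alternatives the adjusted p ran up to 0.302 for Snhg14 and 0.198 for Malat1. The part of these noncoding RNAs, of the length trend or of tissue composition in the low vascular values of on replicate 1 and off replicate 2 was not tested. With the correction for GC content and length, the 34 genes deviated by -0.16 in each of these libraries, against -0.16 and -0.17 before it.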

How the data were processed

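Brain RNA was sequenced in 7 libraries on an Illumina HiSeq-2500, per the series description; per the labels' protocols libraries were made with TruSeq Stranded mRNA kits, a poly(A) selection, from miRNeasy extracts treated with DNase. Per the submitters' processing notes the tools were DESeq2 1.16.1, Subread 1.5.3, STAR 2.5.2, BWA 0.7.14-r1136 and cutadapt 1.9.1 on GRCm38, with no roles given. For annotation release, strand setting and rlog options, nothing is given in the sources used here. The authors deposited rlog values on the log2 scale, which DESeq2 makes by scaling counts for depth and shrinking low genes towards their mean, so that differences of low genes are understated. Counts were not used here, so no counting interval is given.

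Samples were grouped by their titles and phenotype labels. Genes with a mean of 3 or more were tested, 17896 in all, by two-sided limma tests (version 3.58.1, R 4.3.3) with group as the single term and a variance trend with intensity. P-values were adjusted by Benjamini-Hochberg, and calls made under 0.05. The 34 genes, the lists and the rules were chosen with earlier results of these data known. No list was tested as a set. A correction removed from each library its smooth trend with GC content and longest transcript length (GENCODE M21), by mgcv 1.9.3, separately for 3 classes of mean value; 99.6% of tested genes had both. Scripts were tested on simulated data. Symbols were found for 48058 genes. No libraries held identical values.

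Values in every library are given for called genes, for the 3 endothelial and 3 mural genes with the smallest p, for the gene of each role with the highest level per length, and for genes with a gap in the on libraries by Dixon's test. From each other list the called genes or the 1 gene with the smallest p were named. Alternatives were no filter or a minimum of 5, median centring, quantile normalization, no trend, a robust prior, array weights, a replicate block, a threshold of 0.1, the correction alone, with the block or without on replicate 1, and each library left out. Values relative to the other genes of a class were added after seeing the data. Promoters came from RefSeq on GRCm38.p6.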

Additional observations from a re-analysis of the deposited data

Results flagged for a closer look

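Dixon's gap test was run on the on group for 43 values (the 34 genes, means of the 34, of both classes and of the 6 role groups) and found 11 in which 1 library lay far from the other 3. By chance about 1 in 20 groups is picked out, or 2.15 of 43, but genes of 1 cell type share their libraries, so the 11 are not independent. The share over all tested genes was not computed. On replicate 1 stood apart from the on group over all genes, so the 11 cannot be called particular to vascular genes. In all 11 the library was on replicate 1, and it was the lowest. Among receptors it read 10.93 in Flt1 (the others 11.43 to 11.52), 8.72 in Kdr (9.14 to 9.21) and 8.64 in Tek (8.95 to 9.01). It read 7.50 in Emcn (7.90 to 7.92), 10.83 in Slco1c1 (11.09 to 11.14), 7.29 in Sox17 (7.65 to 7.67) and 7.52 in Myh11 (7.95 to 7.99). Mean deviations were -0.16 over the 34 genes (0.093 to 0.13), -0.18 over the endothelial genes (0.090 to 0.13), -0.26 over the receptors (0.14 to 0.21) and -0.15 over the smooth muscle genes (0.096 to 0.14). The off group of 3 is too small for this test.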

How the results depend on the processing

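Of 645 alternative results for single differences among the 34 genes, 565 kept direction and side of the threshold, 33 newly passed, 22 no longer passed and 25 changed sign. There were 25 genes that never changed sign. In the main fit 32 of the 34 were not called, so most of the 565 are uncalled genes that stayed uncalled. The 22 lost calls are all of Vwf and Anpep, which each passed in only 8 of 19 alternatives. The cause of these changes was not tested. Over all genes, the 466 calls (146 higher, 320 lower) became 7 (2 and 5) with no filter, 237 (57 and 180) without the trend, 2215 (1081 and 1134) with array weights, 84 (21 and 63) with the correction for GC content and length, 1620 (902 and 718) after it without on replicate 1, 1182 (455 and 727) at a threshold of 0.1, and 43 to 2917 with 1 library left out. Of the 34 genes, the 2 called became 0 with no filter, 1 with quantile normalization, 1 without the trend, 1 with a robust prior, 9 with array weights, 0 after the correction, 13 after it without on replicate 1, and 0 to 16 with 1 library left out. The labels do not state whether the replicate numbers pair the libraries. Same-numbered ones correlated at -0.23, -0.10 and 0.018, and differently numbered ones at -0.19 to 0.30. So few values cannot decide it. With the replicate block 30 genes and 0 of the 34 were called, and 15 and 0 with the block and the correction.

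Sign changes were as follows. Emcn: -0.011 with the replicate block, -0.023 with the correction, -0.050 with both, and -0.017 to -0.0038 without on replicate 2, 3 or 4 or off replicate 1. Ly6c1: 0.023 with the correction, 0.036 with the block too, 0.034 without off replicate 1, and 0.090 with the correction without on replicate 1. Sox17: 0.017 with array weights, 0.0052 to 0.044 without on replicate 1 or off replicate 1, and 0.049 with the correction without on replicate 1. Vtn: -5.5e-05 with the block, and -0.023 to -5.5e-05 without on replicate 3 or 4 or off replicate 1 or 2. Cldn5 (0.033) and Itm2a (0.0079) turned with the correction without on replicate 1, Ocln (-0.0035) with the correction and the block, and Eng (-0.038) and Notch3 (-0.027) without off replicate 2. With 1 library left out these differences reached 0.18 for Eng, 0.12 for Emcn, -0.16 for Ly6c1, -0.13 for Sox17, 0.13 for Notch3 and 0.074 for Vtn at the other end of their ranges. In the shorter promoter window the motif counts fell to 7 ETS, 0 SOX, 1 GATA and 3 TATA. Depth is unknown, and 4 against 3 libraries limit what differences can be seen.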
